A study of Mus musculus with 22 samples.

Results

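The transcripts of the urea cycle were followed in mouse livers by RNA sequencing of polyadenylated RNA. The 8 members were chosen by name, as the rows Cps1, Nags, Otc, Ass1, Asl, Arg1, Slc25a15 and Slc25a13 of the deposited table, and all 8 were found among its 18716 rows. All livers carry the genotype label Fah-/-. Fah encodes fumarylacetoacetate hydrolase, which completes the breakdown of tyrosine. D0 stands for 7 livers of day 0 that are labelled as normal liver, and the labels do not say whether they received cells. The 8 vehicle livers and the 7 YC livers came from transplanted mice, the cells being hepatocytes labelled td. Both groups had NTBC withdrawn, a drug that protects livers lacking Fah by blocking an earlier step (Hpd), and were then treated for 28 days with vehicle or with an agent known here only by its label, YC. The design text names dedifferentiation and growth of the transplanted cells under YC as the matter the profiles were to address. The genotype, age and number of the donor cells are not given, so a transplanted liver is a mixture of recipient and donor cells in unknown shares, and in such bulk RNA fewer cells of a type and less RNA per cell cannot be told apart.

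The urea cycle turns ammonia, a toxic product of amino acid breakdown, into urea for excretion. In the liver it works mainly in hepatocytes near the portal vein, while hepatocytes next to the central vein capture remaining ammonia as glutamine. Nags makes N-acetylglutamate, without which Cps1 is inactive. Cps1 joins ammonia and bicarbonate to carbamoyl phosphate in mitochondria, Otc adds this to ornithine to make citrulline, Ass1 and Asl convert citrulline to arginine in the cytosol, and Arg1 splits arginine into urea and ornithine. Slc25a15 carries ornithine into and citrulline out of mitochondria, and Slc25a13 (citrin) exports the aspartate that Ass1 uses.

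Upstream sequences are shown for Otc, the member that differed most between YC and vehicle livers, and for Ass1 and Nags, whose levels followed that of Fah among YC livers. In the RefSeq promoter table (build GRCm38.p6) 5 of the 8 members were matched, namely Otc, Ass1, Nags, Slc25a13 and Slc25a15, and Cps1, Asl and Arg1 were not. The 250 bases before each RefSeq start, chrX:10252055-10252304, chr2:31470020-31470269 and chr11:102145263-102145512, all on the plus strand, are given 5′ to 3′ with matches to the motifs searched in capitals. The GENCODE annotation starts Ass1 at 31470207, inside its window, so the end of that window is upstream by the RefSeq start only.
Otc: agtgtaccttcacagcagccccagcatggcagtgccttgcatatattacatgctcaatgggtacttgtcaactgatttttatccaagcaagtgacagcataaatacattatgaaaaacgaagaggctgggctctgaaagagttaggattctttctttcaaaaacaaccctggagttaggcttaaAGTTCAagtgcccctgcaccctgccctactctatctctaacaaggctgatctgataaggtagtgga
Ass1: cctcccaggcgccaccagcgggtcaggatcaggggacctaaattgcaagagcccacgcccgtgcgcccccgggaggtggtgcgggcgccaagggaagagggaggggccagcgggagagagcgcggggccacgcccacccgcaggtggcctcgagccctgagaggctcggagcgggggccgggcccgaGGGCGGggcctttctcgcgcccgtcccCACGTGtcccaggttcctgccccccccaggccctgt
Nags: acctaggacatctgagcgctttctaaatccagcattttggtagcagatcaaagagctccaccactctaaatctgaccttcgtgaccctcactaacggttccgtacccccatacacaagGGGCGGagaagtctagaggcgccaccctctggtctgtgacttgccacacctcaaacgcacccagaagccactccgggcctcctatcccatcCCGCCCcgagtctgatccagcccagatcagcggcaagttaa
The motifs searched on both strands were TATAAA of the core promoter (in 12.4% of windows), CAAAGT of the elements bound by Hnf4a (12.6%), the nuclear receptor element AGTTCA, the C/EBP element TTGCNNAA (9.6%), the cAMP response element TGACGTCA (1.5%), the E-box CACGTG and the Sp1 element GGGCGG. Neighbouring matches could overlap at their ends, and none did in the 3 windows printed. The Otc window held 1 AGTTCA, a motif present in 11.8% of the 32851 windows of this length, and was 43.6% G or C. The Ass1 window was 75.6% G or C and held 1 CACGTG (6.0% of windows) and 1 GGGCGG (32.7% of windows). The Nags window, at 55.6% G or C, held 2 GGGCGG, and the median over all windows was 52.4%. These matches are descriptions of the letters and were not related to the expression values.

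Estimated depths were 50300000 to 82800000 reads or fragments per library, approximate values because other depths fitted nearly as well in several libraries. Fah, which the genotype label names, lay between 21.1 and 38.7 RPKM (a read count divided by gene length and by the size of the library) in D0 livers. It lay between 271 and 542 RPKM in vehicle livers and between 31.5 and 407 RPKM in YC livers, where YC 6 and YC 7 at 41.3 and 31.5 RPKM were next to or inside the D0 range. Transcripts of 4 Y-linked genes summed to at least 1 RPKM in 0 of 7 D0, 8 of 8 vehicle and 3 of 7 YC livers (YC 1, YC 2 and YC 3), so results are also given within libraries that match in this respect. The tissue label was checked against 8 hepatocyte markers, all present, with sums of 63850 to 82180 RPKM in D0, 76210 to 110700 in vehicle and 39670 to 75290 in YC livers. Kidney markers, of another site of Ass1 and Asl, summed to at most 0.176 RPKM in any liver, and Kap was at 0 in all D0 and vehicle livers. Of 6 markers of pancreas or intestine, other sites of Cps1 and Otc, the pancreatic Prss2 and Cpa1 stood at 65.3 and 12.2 RPKM in vehicle 1 and at 135 and 47.3 RPKM in YC 4, against at most 0.234 and 0.124 RPKM in the other vehicle livers and 0.240 and 0.0565 RPKM in the other YC livers. YC 4 also held the intestinal Vil1 at 5.43 RPKM and Lct at 1.05 RPKM (at most 1.94 and 0.0772 RPKM in the other YC livers), so results are also given without vehicle 1 and YC 4. The remaining markers, Cela1 and Fabp2, did not set YC 4 apart, reaching 105 and 119 RPKM in other YC livers. Cela1 was highest in vehicle 1 of the vehicle livers (44.4 against at most 32.4 RPKM). Vil1 and Fabp2 peaked in other vehicle livers, at 0.811 and 96.4 RPKM.

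The urea cycle genes spanned a wide range of levels in every group, as the plot of values by liver shows. In D0 livers the mean RPKM fell in the order Arg1 (909 ± 131, SD, n = 7), Ass1 (892 ± 284), Cps1 (337 ± 71.6), Asl (251 ± 34.3), Otc (214 ± 27.9), Slc25a15 (84.3 ± 6.51), Slc25a13 (46.3 ± 4.04) and Nags (38.3 ± 7.76). Neighbours that kept this order in every D0 liver were Ass1 above Cps1, Otc above Slc25a15 and Slc25a15 above Slc25a13. Arg1 and Ass1 overlapped, Arg1 being the higher in 4 of 7 livers. In vehicle livers Ass1 came first, above Arg1 in 8 of 8 livers. In YC livers Ass1 was above Arg1 in 4 of 7, and Otc had moved below Slc25a15 in 7 of 7 and was above Slc25a13 in 4 of 7.

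**Figure D1:**
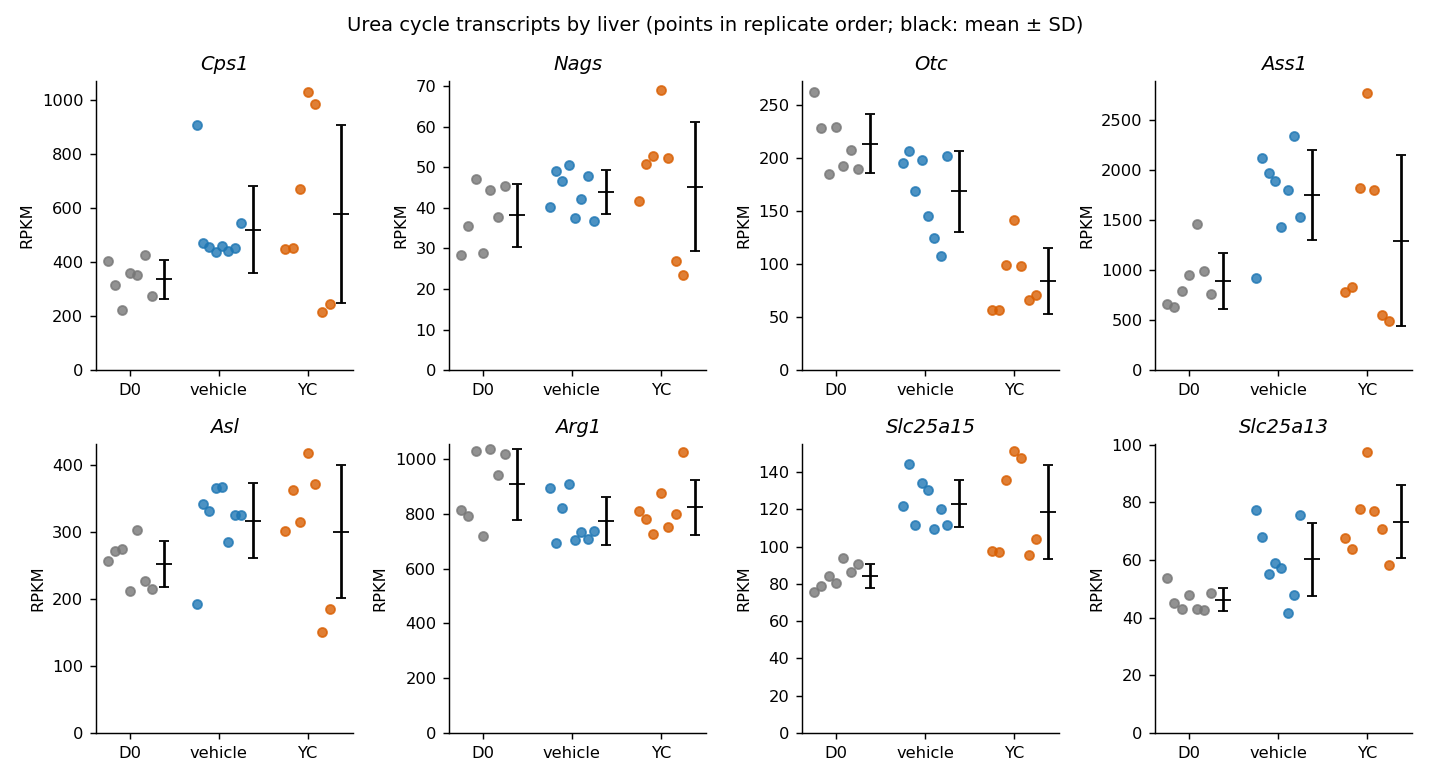
RPKM of the 8 urea cycle genes (y axes, linear from 0) in each D0, vehicle and YC liver (points), with the mean and SD in black. Otc points of YC livers, 56.5 to 142 RPKM, lie below all D0 points, and Cps1, Nags, Ass1 and Asl points of YC livers spread widely while those of Arg1 do not.

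YC livers were first compared with vehicle livers. Otc, ornithine transcarbamylase, was lower in YC livers and was the only 1 of the 8 members called in this comparison, where a call is a limma adjusted p under 0.05 in a fit of 12537 genes. No member was called higher. Over all genes tested 50.7% were called, 44.6% higher and 6.14% lower. For 0 of 8 members were the YC and vehicle livers free of overlap, where 7.08% of all genes were, 6.52% with YC higher and 0.558% with YC lower. Of 8 hepatocyte markers 1 was higher and 4 were lower in YC livers, and their part in the results on members was not tested. The median log2 fold change was -0.05 over the 8 members and 0.31 over all genes. With median-ratio scaling, which brings the median of all genes to 0.01, 3 members were called lower, Otc, Ass1 (-1.01) and Slc25a15 (-0.42).

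Otc (mm10 chromosome X, 10252305 to 10321024, plus strand) had 185 to 262 RPKM (median 208) in D0 livers. It had 108 to 206 RPKM (median 182) in vehicle livers, and 57.0, 56.5, 99.2, 142, 98.6, 66.3 and 70.7 in YC 1 to YC 7. All YC livers except YC 4 lay below the lowest vehicle liver. The mean was 84.3 ± 30.9 RPKM in YC livers (SD, n = 7) and 168 ± 38.3 RPKM in vehicle livers (SD, n = 8). This was 2.05-fold lower, or log2 -1.03 ± 0.19 (SE, limma adjusted p = 0.000106). Of all genes tested, 1.5% had a lower log2 fold change. Against D0 livers Otc in YC livers was 2.64-fold lower (log2 -1.40 ± 0.19, SE, limma adjusted p = 1.86e-06), with no overlap between the groups. Vehicle livers were at log2 -0.37 ± 0.19 from D0 (SE, limma adjusted p = 0.0933), 4 of 8 lying below the D0 range. The fall between YC and vehicle livers was as large in the 3 YC livers with Y-linked transcripts (log2 -1.26, limma adjusted p = 7.31e-05), and the fall from D0 was present in the 4 YC livers without them (log2 -1.23, limma adjusted p = 0.000115). Without YC 6 and YC 7 the Otc difference from vehicle was -0.94 (limma adjusted p = 0.000645), and without vehicle 1 and YC 4 it was -1.13 (limma adjusted p = 1.33e-05).

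The other mitochondrial enzymes, Nags and Cps1, were not called between YC and vehicle livers, and spread more in YC livers. Cps1 (chromosome 1, 67123026 to 67231259) had 223 to 428 RPKM with a median of 352 in D0 livers and 438 to 907 RPKM with a median of 457 in vehicle livers. In YC livers it had 449.5, 451.8, 672, 1030, 984, 214 and 244 RPKM in YC 1 to YC 7. Thus 2 YC livers (YC 4 and YC 5) exceeded every vehicle liver and 2 (YC 6 and YC 7) were below every vehicle liver and within or below the D0 range. YC 4, the highest, and vehicle 1, the highest of its group at 907 RPKM, were the 2 livers with high Prss2 and Cpa1, whose part in Cps1 was not tested. Without these 2 livers the log2 fold change was -0.09 (limma adjusted p = 0.794). The log2 fold change was -0.03 ± 0.28 (SE, limma adjusted p = 0.938), with an approximate 95% interval, taken from the normal distribution, of -0.58 to 0.52. Nags (chromosome 11, 102145513 to 102149477) had 28.4 to 47.1 RPKM in D0, 36.7 to 50.6 in vehicle and 23.6 to 69.0 in YC livers, with a log2 fold change of -0.03 ± 0.18 between YC and vehicle (SE, limma adjusted p = 0.902). Its 2 lowest livers were again YC 6 and YC 7 and its highest YC 4. The annotation places the antisense gene Gm11586 inside Nags, and no source used here says whether counting used strand, so reads of the 2 cannot be told apart. Without YC 6 and YC 7 both genes had positive values that did not pass the test (Cps1 log2 0.41, Nags 0.27, limma adjusted p = 0.119 for each).

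Of the cytosolic enzymes, none was called between YC and vehicle livers. Ass1 (chromosome 2, 31470207 to 31520672) had 628 to 1457 RPKM (median 789) in D0 livers. In vehicle livers it had 924 to 2345 RPKM (median 1846), and in YC livers 786, 834, 1817, 2773, 1804, 556 and 490 RPKM in YC 1 to YC 7. Of the 7 YC livers 4 lay below every vehicle liver and 1, YC 4, above every one. The log2 fold change was -0.66 ± 0.31 (SE, limma adjusted p = 0.0775). It was called without vehicle 1 (-0.78), without YC 3 (-0.79), without YC 4 (-0.89), without YC 5 (-0.79) and without both vehicle 1 and YC 4 (-1.01), while without YC 6 and YC 7 it was -0.24 (limma adjusted p = 0.474). Asl (chromosome 5, 130011258 to 130029247) had 212 to 303 RPKM in D0, 193 to 367 in vehicle and 150 to 418 in YC livers, at log2 -0.13 ± 0.19 (SE, limma adjusted p = 0.579). Arg1 (chromosome 10, 24915221 to 24927484) had 719 to 1038 RPKM in D0, 693 to 909 in vehicle and 727 to 1026 in YC livers, at log2 0.09 ± 0.12 (SE, limma adjusted p = 0.568). Its 7 YC livers all lay inside the D0 range. The Arg1 value had the opposite sign with median-ratio scaling (-0.26, limma adjusted p = 0.123) and was called higher with quantile normalization (0.31, limma adjusted p = 0.0347), so no direction is given. Macrophages can also make Arg1. The 5 genes listed for alternatively activated macrophages (Mrc1, Retnla, Chil3, Retnlg and Cd163) summed to 8.12 to 24.5 RPKM in D0, 14.3 to 42.1 in vehicle and 15.7 to 70.9 in YC livers. Of 4 tested, 1 (Chil3) was higher in YC than in vehicle livers. Chil3 and Retnlg were lowest in YC 2 and YC 4 and highest in YC 7 among YC livers. So were S100a8, S100a9 and Camp, though not every gene, of the neutrophil list. The sum thus cannot be assigned to macrophages alone. Mean Mrc1 was 10.3, 11.2 and 11.8 RPKM and mean Cd163 1.74, 2.48 and 4.00 RPKM in D0, vehicle and YC livers. The part of such cells in the Arg1 level was not tested.

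The mitochondrial carriers were not called between YC and vehicle livers. Slc25a13 (chromosome 6, 6041218 to 6217173) had 41.7 to 77.5 RPKM (median 58.1) in vehicle livers and 58.3 to 97.6 RPKM (median 70.9) in YC livers, 2 of which exceeded every vehicle liver. The difference was log2 0.29 ± 0.13 (SE, limma adjusted p = 0.0713), close to the median of all genes. It was called higher without vehicle 1 (0.35), without vehicle 8 (0.34), without YC 7 (0.34), without YC 6 and YC 7 (0.36) and with values rescaled to an equal total (0.40), and was -0.06 with median-ratio scaling. Slc25a15 (chromosome 8, 22375551 to 22398597) had 109 to 145 RPKM (median 121) in vehicle livers and 95.6 to 151 RPKM (median 104) in YC livers, at log2 -0.07 ± 0.12 (SE, limma adjusted p = 0.628), and was called lower with median-ratio scaling.

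**Figure D2:**
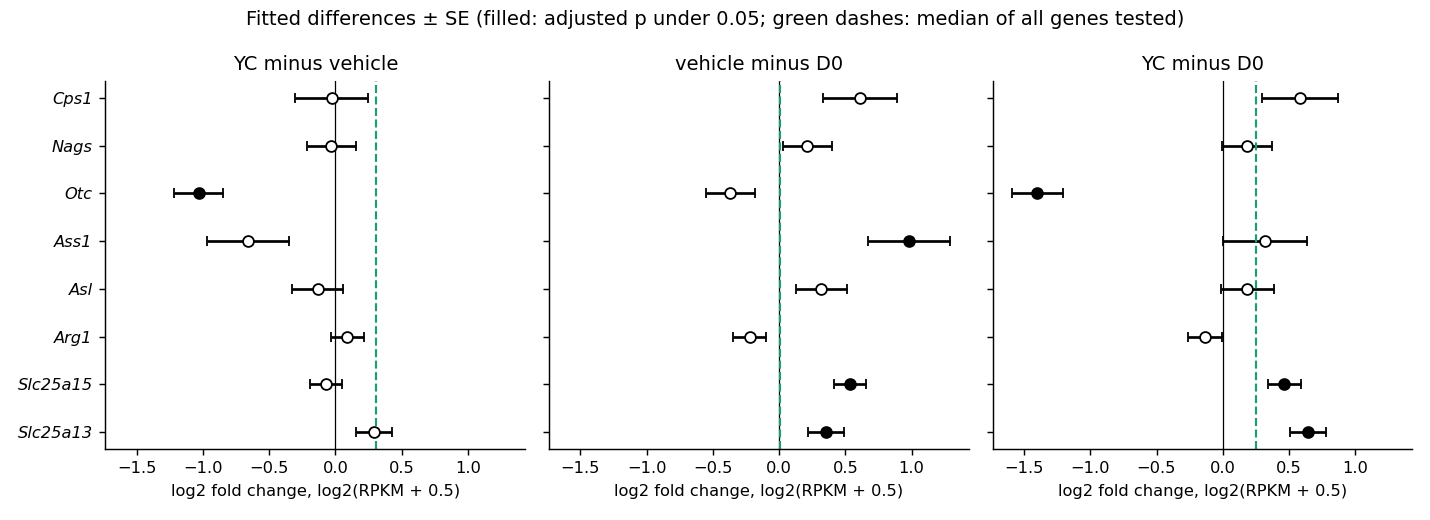
Log2 fold changes ± SE (x axes) of the 8 genes in the 3 comparisons, filled where the adjusted p was under 0.05, with green dashes at the median of all genes tested (0.31, 0.01 and 0.25 from left to right). Otc lies farthest to the left in both panels with YC livers, at -1.03 and -1.40.

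Vehicle livers were next compared with D0 livers, which differ from them in transplantation, time and NTBC withdrawal together, and in Y-linked transcripts (8 of 8 against 0 of 7), so that these cannot be told apart. Ass1 and both carriers were higher in vehicle livers, so that 3 of 8 members were called higher and 0 lower, where 58.1% of all genes were called, 28.2% higher and 29.9% lower. Ass1 was 1.97-fold higher (log2 0.98 ± 0.31, SE, limma adjusted p = 0.00917), with 6 of 8 vehicle livers above every D0 liver. Slc25a15 was 1.45-fold higher (log2 0.54 ± 0.12, limma adjusted p = 0.000603), and its groups did not overlap, at 75.8 to 94.0 RPKM in D0 and 109 to 145 RPKM in vehicle livers. Slc25a13 was 1.28-fold higher (log2 0.35 ± 0.13, limma adjusted p = 0.0261), a call lost with quantile normalization (0.29), with an equal total (0.26), without vehicle 2 (0.32) and without vehicle 8 (0.30). Cps1 was also without overlap, all 8 vehicle livers exceeding the highest D0 liver, yet its log2 fold change of 0.61 ± 0.28 (SE) had a limma adjusted p of 0.0628 in the fit that estimates the spread over all 3 groups. With only the 2 groups in the fit it was called at the same value (limma adjusted p = 0.0045), as it was without YC 4, YC 5, YC 6 or YC 7 (limma adjusted p = 0.0367 to 0.0477), and without vehicle 1 and YC 4 it was 0.49 (limma adjusted p = 0.0896). In all, 2 of 8 members did not overlap, both higher, where 22.9% of all genes did not, 11.2% higher and 11.7% lower. Asl, Nags, Otc and Arg1 were at log2 0.32, 0.21, -0.37 and -0.22 and were not called. Otc was called lower with an equal total (-0.47) and with only the 2 groups fitted, and Arg1 with an equal total (-0.32) and quantile normalization (-0.28). Without vehicle 1 and YC 4 Asl was called higher (0.42) and Otc lower (-0.40). Macrophage markers moved with this comparison, 10 of 10 higher, their sum being 174 to 352 RPKM in D0 and 613 to 2084 RPKM in vehicle livers. So did neutrophil markers, 6 of 7 higher (sums 3.84 to 49.7 and 39.4 to 148 RPKM), and bile duct markers, 5 of 6 higher (31.0 to 52.7 and 125 to 342 RPKM). Their part in these results was not tested.

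Between YC and D0 livers, which share the D0 livers with the comparison above, Slc25a15 and Slc25a13 were called higher and Otc lower, where 41.2% of all genes were called higher and 12.3% lower (53.4% in all). Slc25a13 was 1.56-fold higher in YC livers (log2 0.64 ± 0.14, SE, limma adjusted p = 0.000389), with 58.3 to 97.6 RPKM against 42.6 to 53.6 RPKM. Slc25a15 was 1.38-fold higher (log2 0.46 ± 0.13, limma adjusted p = 0.00316), with 95.6 to 151 RPKM against 75.8 to 94.0 RPKM. With median-ratio scaling neither carrier was called (Slc25a13 0.30, Slc25a15 0.12) and Arg1 was called lower (-0.48), and with quantile normalization Slc25a15 was not called (0.31). The 2 carriers and Otc had no overlap between the groups, 3 of 8 members, where 23.6% of all genes had none, 19.4% with YC higher and 4.17% with YC lower. Macrophage markers were higher in YC than in D0 livers for 10 of 10, at sums of 438 to 1075 RPKM in YC livers. Neutrophil markers were higher for 7 of 7 (33.4 to 373 RPKM) and bile duct markers for 6 of 6 (121 to 356 RPKM), and the part of these cells was not tested. Cps1, Ass1, Asl, Nags and Arg1 were not called, at log2 0.58, 0.32, 0.19, 0.18 and -0.13. Cps1 was called higher without YC 6 (0.78) or without YC 7 (0.75). Without both YC 6 and YC 7 the first 4 of the 5 genes were called higher, at 1.03, 0.73, 0.49 and 0.48, so that 6 members were called higher and 1 lower. However, YC 6 and YC 7 had the lowest values of these 4 genes among YC livers. Leaving them out raises the YC means by construction, so no conclusion is drawn from those calls. In the 4 YC livers without Y-linked transcripts the same 2 counts as with all 7 were found, 2 higher and 1 lower.

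The members varied in different degrees among livers of the same group. In YC livers the SD of log2 values was 0.96 for Ass1 and 0.90 for Cps1, above that of 96.6% and 95.6% of 7263 tested genes whose mean reached 5 RPKM, the median SD of which was 0.34. Nags and Asl had SDs of 0.55 and Arg1 one of 0.17. In vehicle livers the SDs ran from 0.14 (Slc25a15) to 0.42 (Ass1) and the median of these genes was 0.30. Over the 22 libraries Ass1 was most like Slc25a15 (r = 0.76) and Nags most like Asl (r = 0.75), while the highest r of Otc with any member was 0.16 (Ass1) and that of Arg1 0.13 (Otc). With group means removed the r of Otc was 0.81 with Slc25a13 and 0.62 with Cps1. These r describe 22 libraries that share 3 groups and their depth, and none was tested.

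Among YC livers the members followed Fah to different degrees, a relation examined after the values were seen. Fah was 105, 128, 290, 407, 292, 41.3 and 31.5 RPKM in YC 1 to YC 7. Over these 7 livers Pearson's r of log2 values with Fah was 0.97 for Ass1 (exact permutation p = 0.000397, Benjamini-Hochberg adjusted p = 0.00476 over 24 relations) and 0.97 for Nags (the same p values). It was 0.97 for Cps1 (exact permutation p = 0.00179, adjusted p = 0.0115) and 0.90 for Asl (exact permutation p = 0.00694, adjusted p = 0.0333). Spearman's rho was 0.96 for Ass1, Nags and Cps1 (exact permutation p = 0.00278, adjusted p = 0.0167) and 0.93 for Asl (exact permutation p = 0.00675, adjusted p = 0.0324). Leaving out YC 4 and YC 7, the livers farthest from the median of Fah, r was 0.97, 0.92, 0.97 and 0.84 for Ass1, Nags, Cps1 and Asl. The relation did not pass the adjusted test for Slc25a15 (r = 0.83, rho = 0.75, exact permutation adjusted p = 0.117 and 0.199), Slc25a13 (0.80 and 0.82, adjusted p = 0.102 and 0.137), Otc (0.71 and 0.61, adjusted p = 0.172 and 0.364) or Arg1 (-0.54 and -0.39, adjusted p = 0.284 and 0.5). Without YC 4 and YC 7 the r of Slc25a15, Slc25a13, Otc and Arg1 was 0.86, 0.55, 0.71 and -0.82, values that were not tested. Among all 12536 other genes tested, 16.0% had a positive and 27.4% a negative r with Fah at an unadjusted exact permutation p under 0.05. An r at least that of Asl was held by 7.12%, and one of at least 0.96, reached by Ass1, Nags and Cps1, by 2.55%. A relation to Fah in either direction was thus common among genes and is not particular to the members. Of the members 6 were positive and 0 negative at that unadjusted threshold. The livers with and without Y-linked transcripts, 3 and 4, were too few to give a value each.

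Within the 8 vehicle livers only Asl passed (r = 0.88, exact permutation p = 0.00191, adjusted p = 0.0115, rho = 0.93, exact permutation p = 0.00223, adjusted p = 0.0167), with r = 0.66 without vehicle 1 and vehicle 4, the 2 livers farthest from the median of Fah. Cps1 had a negative r there (-0.77, rho = -0.40, exact permutation p = 0.039 and 0.327, adjusted p = 0.117 and 0.49), which was 0.07 without the same 2 livers. Within the 7 D0 livers no member passed, the highest r being 0.74 (Slc25a15, rho = 0.75, exact permutation adjusted p = 0.142 and 0.199) and the lowest -0.63 (Otc, rho = -0.54, exact permutation adjusted p = 0.251 and 0.404). Whether the relation differs between groups was not tested.

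**Figure D3:**
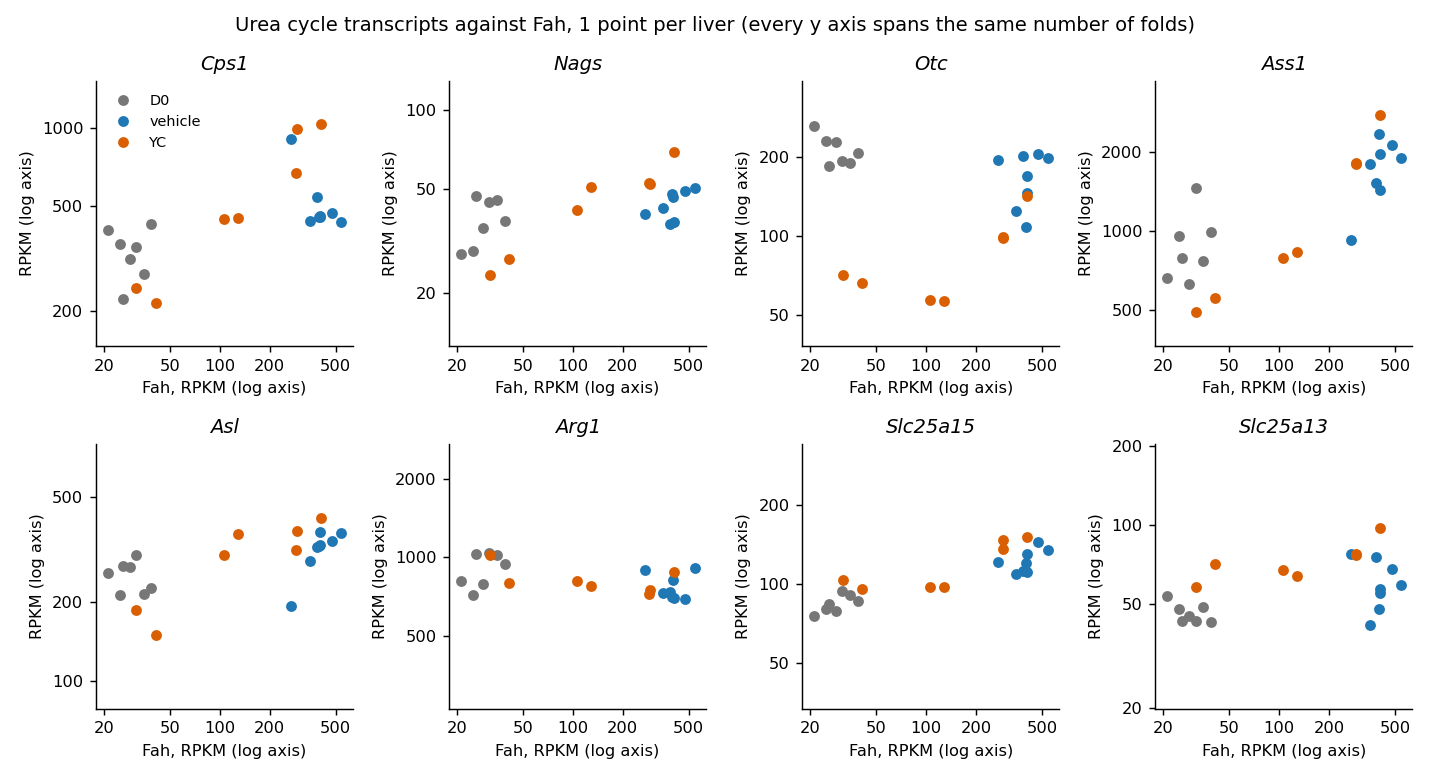
RPKM of each urea cycle gene against Fah RPKM (log axes, each y axis covering the same number of folds), 1 point per liver. For Cps1, Nags, Ass1 and Asl the YC points climb from left to right, with YC 6 and YC 7 at the left beside the D0 points, while the Arg1 points are nearly level.

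Ratios within a liver do not depend on a scaling factor of the library, though they do on quantile normalization, which bends the scale. In all, 9 were compared by two-sided exact permutation tests adjusted over 27 values. The ratio of Otc to Cps1, successive enzymes of the mitochondrial part, was 0.485 to 0.830 in D0 livers, while vehicle livers lay at 0.215 to 0.454 and YC livers at 0.1002 to 0.309. In vehicle livers it was 1.98-fold lower than in D0 livers (exact permutation test, adjusted p = 0.00262), with no overlap, and in YC livers 2.01-fold lower than in vehicle livers (exact permutation test, adjusted p = 0.014). YC 6 and YC 7, at 0.309 and 0.290, had higher Otc to Cps1 ratios than the other 5 YC livers, at 0.1002 to 0.148. Cps1 rose relative to Alb, the albumin gene, its ratio in YC livers being 2.10-fold that of vehicle livers (exact permutation test, adjusted p = 0.0021), with no overlap, and in vehicle livers 1.31-fold that of D0 livers (adjusted p = 0.0278). Both of these Cps1 to Alb calls ended with quantile normalization (log2 0.44 in each, adjusted p = 0.248 and 0.105). The second also ended without D0 2 (0.37), D0 3 (0.37), D0 7 (0.34), vehicle 2 (0.37) or vehicle 3 (0.36). Alb itself was at log2 -1.10 ± 0.21 between YC and vehicle livers (SE, limma adjusted p = 0.000177), and was not called with quantile normalization (-0.30). That normalization gave Alb the same value in vehicle and D0 livers, so the ratio there was the Cps1 change alone (0.44). Because it evens out Alb, it cannot decide whether the ratio to Alb changed in these 2 comparisons, and no conclusion is drawn from those lost calls. Between YC and D0 livers the Cps1 to Alb ratio was 2.76-fold higher in YC livers (exact permutation test, adjusted p = 0.00262). That call was kept with quantile normalization (log2 0.87, exact permutation test, adjusted p = 0.0157).

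The ratio of Arg1 to Arg2, the mitochondrial arginase, fell 4.41-fold between vehicle and YC livers (exact permutation test, adjusted p = 0.0021) and 2.95-fold between D0 and vehicle livers (adjusted p = 0.014). With quantile normalization the first fall was log2 -1.01 in place of -2.14 (exact permutation test, adjusted p = 0.00393). The second was -0.57 in place of -1.56 (adjusted p = 0.0634) and no longer called. However, the quantile values include the 0.5 added to RPKM before taking logs, and the ratios as deposited do not. Arg2 was low enough for this to matter, with medians of 0.235 RPKM in D0 and 0.661 RPKM in vehicle livers. The smaller falls thus cannot be assigned to quantile normalization alone. With 0.5 added to both genes and no quantile normalization, the call between vehicle and D0 livers was kept. The ratio of Arg1 to Arg2 was 899 to 5697 for D0 livers, 692 to 2077 for vehicle livers and 154 to 467 for YC livers. Slc25a15 to Slc25a13 fell 1.29-fold between vehicle and YC livers (exact permutation test, adjusted p = 0.0402), a call that ended without YC 6 and YC 7 (adjusted p = 0.0791), with quantile normalization (adjusted p = 0.105), with YC livers bearing Y-linked transcripts alone (adjusted p = 0.131) and with 1 library left out where that was vehicle 2, 3, 4, 5, 6 or 7 or YC 1, 2, 4 or 6 (log2 -0.32 to -0.37, adjusted p = 0.0551 to 0.0809). Asl to Ass1 and Arg1 to Asl were lower in vehicle than in D0 livers (1.58-fold and 1.46-fold, exact permutation test, adjusted p = 0.014 and 0.0278) and were not called between YC and vehicle livers. The Arg1 to Asl call ended without D0 7 (-0.48) or vehicle 2 (-0.50), and Asl to Ass1 was called between YC and vehicle livers without YC 4 (0.66, exact permutation test, adjusted p = 0.0292). Ass1 to Cps1 was called in none of the comparisons (-0.63 between YC and vehicle livers, adjusted p = 0.115). Without vehicle 1 it was called lower in YC than in vehicle livers (-0.88, adjusted p = 0.00197) and higher in vehicle than in D0 livers (0.61, adjusted p = 0.0351). Nags to Cps1 and Cps1 to Glul, the last comparing the portal entry enzyme with the central vein enzyme that makes glutamine, were called in none of the comparisons.

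**Figure D4:**
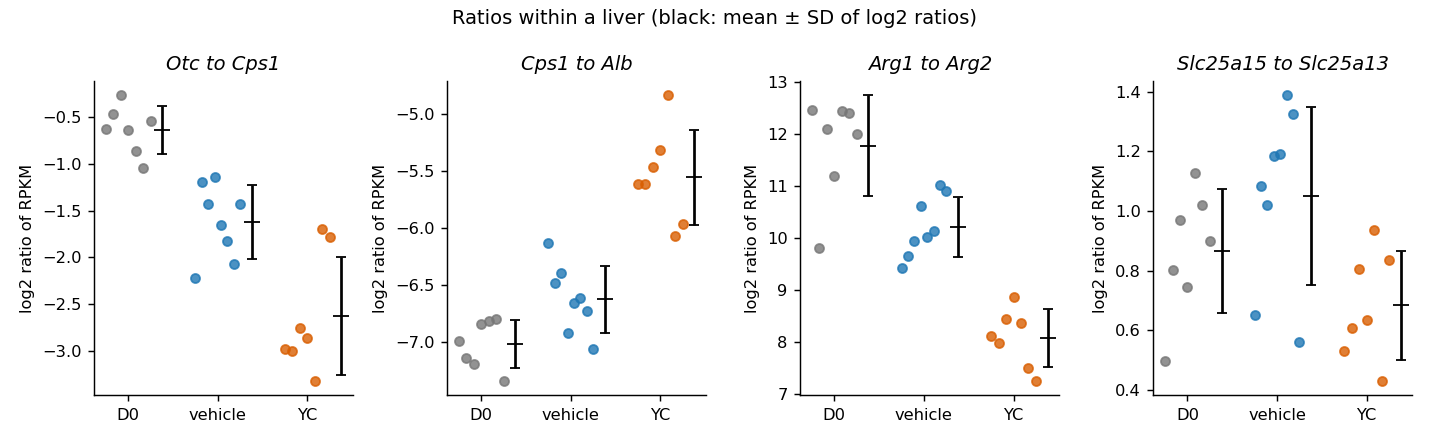
Log2 ratios of RPKM within a liver (y axes) for 4 pairs of genes in D0, vehicle and YC livers, with the mean and SD in black. Otc to Cps1 and Arg1 to Arg2 step down from D0 through vehicle to YC livers, and Cps1 to Alb steps up.

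Genes around the cycle were read from 5 lists, and their counts are given beside the same 50.7% called among all genes between YC and vehicle livers. The counts moved with the scaling: with median-ratio scaling the lists in the order below had 1, 2, 2, 1 and 1 genes higher and 3, 8, 2, 7 and 4 lower, and without YC 6 and YC 7 they had 7, 3, 2, 2 and 5 higher and 1, 1, 1, 0 and 0 lower. Of 15 genes of ammonia, glutamine and glutamate 4 rose, 2 fell and 9 did not pass, with a median log2 fold change of 0.01. Asns, which makes asparagine, had 0.215 to 0.470 RPKM in D0, 1.71 to 17.9 RPKM in vehicle and 17.2 to 87.1 RPKM in YC livers, at log2 2.85 ± 0.38 between YC and vehicle (SE, limma adjusted p = 5.31e-06). Slc1a2, a glutamate transporter, fell by 1.35 on the log2 scale (limma adjusted p = 0.0024), and Gls2, the liver glutaminase that feeds ammonia to Cps1, by 0.83 (limma adjusted p = 0.00656), a call lost without YC 6 and YC 7 (-0.51, limma adjusted p = 0.0547). Gls2 had 93.3, 96.4, 184, 258, 189, 74.3 and 65.4 RPKM in YC 1 to YC 7, so its highest liver was YC 4 and its lowest YC 6 and YC 7. Glul, glutamine synthetase, was at log2 0.01 ± 0.18 (SE) between YC and vehicle livers and exceeded its D0 level in both (0.84 and 0.83, limma adjusted p = 0.000414 and 0.000317). Glud1, the mitochondrial glutamate dehydrogenase and the most abundant uncalled gene of the list, was at 0.21 ± 0.10, with a call at 0.32 with an equal total and a value of -0.14 with median-ratio scaling, so no direction is given.

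Of 15 tested genes of ornithine, proline and arginine use (3 of the 18 listed were too low to test) 5 rose, 4 fell and 6 did not pass (median -0.14). Arg2 had medians of 0.235 RPKM in D0, 0.661 RPKM in vehicle and 2.93 RPKM in YC livers, at log2 1.61 ± 0.21 between YC and vehicle (SE, limma adjusted p = 4.11e-06), and the lowest YC liver, at 1.88 RPKM, was above every vehicle liver. Its highest values, 4.41 and 6.67 RPKM, were in YC 6 and YC 7. Oat, which moves ornithine toward glutamate, fell by 1.16 on the log2 scale between vehicle and YC livers (limma adjusted p = 0.0236) and was higher by 1.15 in vehicle than in D0 livers (limma adjusted p = 0.0219). Both Oat calls were lost with quantile normalization (-1.14 and 1.04), and the first without YC 6 and YC 7 (-0.58, limma adjusted p = 0.194). It had 45.1 RPKM in YC 7 and 547 RPKM in YC 4. Slc25a12, the aspartate carrier of tissues other than liver and partner of Slc25a13, rose by 0.49 ± 0.16 (SE, limma adjusted p = 0.0155) at a mean of 5.63 RPKM in YC livers, a call lost with median-ratio scaling (0.17) and quantile normalization (0.09). Slc25a2, a relative of Slc25a15, was at most 0.403 RPKM in any liver and was not tested. Aldh4a1, of proline breakdown, was uncalled at -0.17 ± 0.25.

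Of 9 polyamine genes, which use ornithine from arginase, 4 rose, 1 fell and 4 did not pass (median 0.44). Smox, spermine oxidase, rose by 0.87 ± 0.19 (SE) and Paox, an oxidase of acetylated polyamines, fell by 0.93 (limma adjusted p = 0.000606 and 0.00415), while Oaz1, antizyme, was at -0.18 ± 0.18 and was called lower with median-ratio scaling (-0.53). Of 12 genes of amino acid breakdown 1 rose, 3 fell and 8 did not pass (median -0.34). Gldc, of glycine cleavage, rose by 1.21 ± 0.20 (SE, limma adjusted p = 4.58e-05), Uroc1, of histidine breakdown, fell by 0.82 (limma adjusted p = 0.0418), and Tdo2, tryptophan dioxygenase, was at 0.11 ± 0.23 between YC and vehicle livers. The Uroc1 call was lost with quantile normalization (-0.865), with an equal total (-0.72) and without YC 6 and YC 7 (-0.17). Tdo2 was lower than in D0 livers in both, at -1.30 and -1.40 (limma adjusted p = 5.74e-05 and 1.59e-05). Of 15 regulators 3 rose, 1 fell and 11 did not pass (median 0.14). Fgf21, a hormone of the fasted and stressed liver, rose by 1.69 ± 0.31 (SE, limma adjusted p = 0.000151), Klf15, a factor of amino acid catabolism, fell by 0.58 (limma adjusted p = 0.0142), and Cebpa, a hepatocyte transcription factor, was at -0.25 ± 0.17. Without YC 6 and YC 7 Klf15 was not called (-0.34), and with median-ratio scaling Cebpa was called lower (-0.60). Between vehicle and D0 livers, where 58.1% of all genes were called, the lists in the same order had 6, 9, 0, 3 and 5 genes higher and 0, 0, 4, 2 and 4 lower. Between YC and D0 livers, where 53.4% were called, they had 9, 6, 2, 4 and 5 higher and 2, 2, 2, 3 and 2 lower. With median-ratio scaling these YC and D0 counts were 6, 6, 1, 2 and 4 higher and 3, 2, 5, 7 and 5 lower, so that the last 3 lists had more genes lower than higher.

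**Figure D5:**
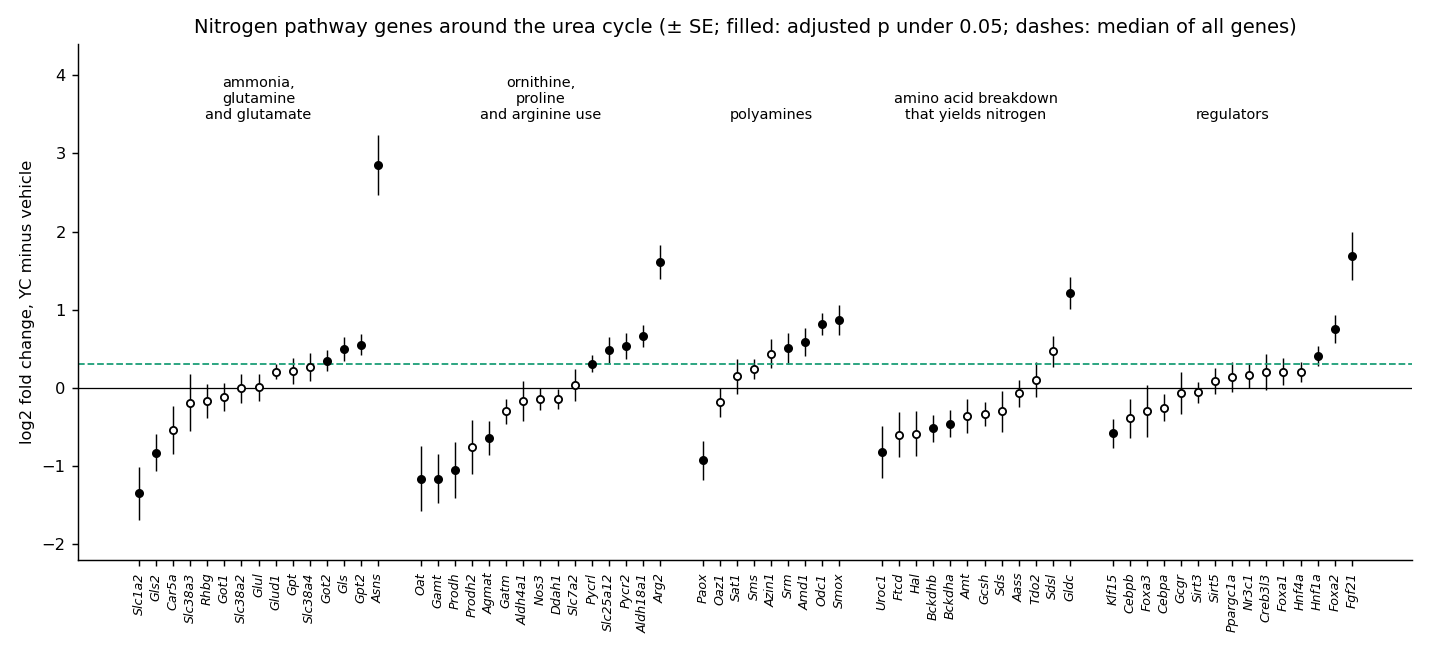
Log2 fold change between YC and vehicle livers ± SE (y axis) of each tested gene of the 5 lists (x axis, ordered by value within a list), filled where the adjusted p was under 0.05, with dashes at the median of all genes (0.31). Asns (2.85), Fgf21 (1.69) and Arg2 (1.61) are the highest points and Slc1a2 (-1.35) the lowest.

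Of 7255 other genes whose mean reached 5 RPKM, those whose log2 values over the 22 libraries were most like the mean standardised profile of the 8 members were Blmh (r = 0.92), Pbld1 (0.90), Prodh2 (0.90), Kcnn2 (0.89) and Pyroxd2 (0.89). With group means removed the r were 0.88, 0.90, 0.88, 0.90 and 0.84. Prodh2, hydroxyproline dehydrogenase of the liver, had 75.3 to 113 RPKM in D0, 152 to 233 RPKM in vehicle and 32.0 to 292 RPKM in YC livers. These genes were picked as the highest of all, so their r carries no test.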

How the data were processed

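The authors deposited 1 table of RPKM with 1 column per library for 22 libraries. Per the submitters' processing notes TopHat 1.4.1, Cufflinks 1.3.0 and mm10 were used. Their roles, and the annotation, filters and strand use, are not stated in any source used here. Library depth was estimated from low values of genes with 1 annotated transcript, where a value is a whole multiple of what 1 read is worth. At the best depth 23.9% to 30.7% of these values were whole within 0.01, too few for a count test. In D0 6 131 values were whole at the best depth and 122 at the next best, and in YC 5 183 and 127. By a chi-square on recovered reads, no pair of libraries in a group looked like 1 library sequenced again (lowest mean 2.92 per gene, YC 3 and YC 5). This check rests on the estimated depths, and it cannot tell whether libraries came from the same animal.

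The 12537 genes that reached 0.5 RPKM in 7 or more libraries were tested on log2(RPKM + 0.5), which understates changes of low genes, with limma 3.58.1 (trend and robust, statmod 1.5.0, R 4.3.3). The 3 groups shared 1 model and its estimate of the spread. P-values are two-sided and adjusted by Benjamini-Hochberg over all genes. The fit was tested on simulated data. The labels do not say that each library is a separate animal, and p-values then measure only the spread among libraries, which may be technical. Ratios and relations to Fah (24, added after values were seen) used two-sided exact permutation tests in Python 3.11.15 with numpy 2.4.6, scipy 1.17.1 and pandas 2.3.3, and figures matplotlib 3.10.9. Positions come from GENCODE M21, the same build as mm10, and promoters from RefSeq. Named genes were the 8 members, in each list the called gene with the largest rise and fall between YC and vehicle livers and the most abundant uncalled gene, and 6 partner genes. Tdo2, Gls2 and Glul values in other comparisons, Chil3, Gm11586 and Prodh2 levels were added after values were seen. Alternatives were other pseudocounts, filters, scalings, designs and left-out libraries and, added after values were seen, subsets of YC livers by Y-linked transcripts, the list genes under the scalings, ratios with quantile normalization, fits without vehicle 1 and YC 4, and the share of all genes related to Fah. Members and lists were chosen with earlier results of these data known. The marker lists for macrophages, neutrophils, bile duct, endothelium and intestine or pancreas were also read, with 10, 7, 6, 6 and 3 genes tested. Of these 0, 4, 3, 1 and 2 were higher and 3, 0, 0, 1 and 0 lower between YC and vehicle livers, where 44.6% of all genes were higher and 6.14% lower.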

Additional observations from a re-analysis of the deposited data

Results flagged for a closer look

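The library vehicle 1 stood apart from the other 7 vehicle livers in 2 members. Its Cps1 level of 907 RPKM lay far above the others, at 438 to 543 RPKM, the gap being 0.703 of the group's log2 range. Its Asl level of 193 RPKM lay below the others, at 285 to 367 RPKM, with a gap of 0.608 of the range. Vehicle 1 also held the pancreatic transcripts Prss2 and Cpa1 at 65.3 and 12.2 RPKM, where no other vehicle liver exceeded 0.234 and 0.124 RPKM, and their part in these values was not tested. The limit for 8 samples was 0.526. Of 24 sets of 1 member in 1 group these 2 passed it, where chance flags about 1 in 20.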

How the results depend on the processing

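The Otc calls between YC and vehicle livers and between YC and D0 livers held under every alternative run, with values of -1.17 to -0.95 and -1.54 to -1.32 when single libraries were left out. The number of members called between YC and vehicle livers (0 higher, 1 lower) was 0 to 1 higher and 1 to 2 lower with a library left out, 3 lower with median-ratio scaling, 1 higher and 2 lower with array weights, and 1 higher with quantile normalization, an equal total or without YC 6 and YC 7. Between vehicle and D0 livers (3 higher, 0 lower) it was 1 lower with quantile normalization or only the 2 groups fitted, 2 lower with an equal total, 5 higher and 2 lower with array weights and 5 higher without YC 6 and YC 7. Between YC and D0 livers (2 higher, 1 lower) it was 0 higher and 2 lower with median-ratio scaling, 1 higher with quantile normalization, 4 higher with array weights and 6 higher without YC 6 and YC 7, the last with the limit given above. With a mean of at least 5 RPKM fewer genes were tested and 3816, 4061 and 3560 were called in the 3 comparisons. Over all genes 87.9% of calls between YC and vehicle livers were higher as deposited, but 52.1% after median-ratio scaling and 51.7% after quantile normalization; between YC and D0 livers these were 77.1%, 47.4% and 43.7%. Ratios called between vehicle and D0 livers (5) were 3 to 6 with a library left out, and with quantile normalization 2 were called between YC and vehicle livers (4 as deposited) and 3 between vehicle and D0 livers. The calls lost with quantile normalization include Cps1 to Alb and Arg1 to Arg2, with the limits given above. Without vehicle 1 and YC 4, chosen after seeing the data, 2 members were called lower between YC and vehicle livers, 1 was called lower between vehicle and D0 livers, and Asl to Ass1 between YC and D0 livers changed sign (0.0013).

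Values near 0 changed sign. Between YC and vehicle livers these were Arg1 (-0.26) and Slc25a13 (-0.055) with median-ratio scaling, Cps1 (0.13) and Cps1 to Glul (0.12) with quantile normalization, Cps1 (0.076), Nags (0.075) and Slc25a15 (0.032) with an equal total, Cps1 (0.18) and Nags (0.083) with array weights, Cps1 (0.41), Nags (0.27), Asl (0.17), Slc25a15 (0.014), Arg1 to Asl (-0.14) and Cps1 to Glul (0.52) without YC 6 and YC 7, and Cps1 (0.028), Nags (0.14), Asl (0.061), Nags to Cps1 (0.12), Arg1 to Asl (-0.059) and Cps1 to Glul (0.081) with YC livers bearing Y-linked transcripts, a setting chosen after seeing the data. Between YC and D0 livers they were Nags (-0.16), Ass1 (-0.026) and Asl (-0.16) with median-ratio scaling, Nags (-0.045) and Arg1 (0.028) with quantile normalization and Cps1 to Glul (0.295) without YC 6 and YC 7. With single libraries left out, Cps1 ran from -0.21 to 0.17, Nags from -0.15 to 0.11, Asl from -0.23 to 0.019, Nags to Cps1 from -0.14 to 0.11 and Cps1 to Glul from -0.26 to 0.25 between YC and vehicle livers, and Asl to Ass1 from -0.25 to 0.0013 and Cps1 to Glul from -0.48 to 0.027 between YC and D0 livers. The cause was not tested.

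Replicate numbers did not pair the libraries: same-numbered libraries had correlations of their deviations between -0.39 and 0.23, with 5 of 21 pairs over 0.1, and 2 of 22 libraries correlated best with their own number. With the replicate number as a block 6002, 7129 and 6486 genes were called in the 3 comparisons, and 1 member (Slc25a13, 0.34) was called higher between YC and vehicle livers, while Slc25a13 was not called between vehicle and D0 livers (0.30). At these depths every member lies far above what 1 read is worth, and the spread between livers limits the precision.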
